A study of Mus musculus with 6 samples.

Results

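The genes described here are 10 components of the mitogen-activated protein (MAP) kinase cascade, chosen by name from the 54532 genes of the expression tables: the dual-specificity phosphatases Dusp1, Dusp2, Dusp4, Dusp5, Dusp6 and Dusp16, and the kinases Map3k8, Map2k3, Mapk14 and Mapkapk2. RNA-sequencing was performed on mouse immortalized bone marrow-derived macrophages (iBMDMs) that carried either a control shRNA (control) or an shRNA against Pgam5 (PGAM5 KD), the gene of a mitochondrial serine/threonine phosphatase. All 6 libraries, 3 per group, came from cells treated with 100 ng/ml lipopolysaccharide (LPS), a bacterial ligand of Toll-like receptor 4, for 4 hours, so no library shows the level without LPS. The cells of both groups were immortalized with retroviruses that carry v-raf and v-myc, and received the shRNA by lentivirus. The labels name the shRNA only as shControl or shPGAM5, so separate shRNA sequences against Pgam5 cannot be compared here. The oncogene v-raf is an activated form of a Raf kinase, which stands at the top of the ERK branch of the cascade, and its part in the levels of either group was not tested. Loss of Pgam5 cannot be told apart from other effects of this shRNA or of the derived line, and the labels do not say whether the 3 libraries of a group came from separate cultures, so the p-values measure only the spread between these samples.

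MAP kinases are activated in a relay. A MAP kinase kinase kinase phosphorylates a MAP kinase kinase, which in turn phosphorylates a MAP kinase (ERK, JNK or p38) on a threonine and a tyrosine, and the MAP kinase then activates further kinases and transcription factors. The typical dual-specificity phosphatases remove both phosphates again, and several of them are themselves transcribed in response to the cascade, which makes them feedback inhibitors. In macrophages the relay runs downstream of Toll-like receptors and governs the transcription, stability and translation of cytokine mRNAs.

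In PGAM5 KD iBMDMs, 4 of the 10 genes were higher than in control, all of them phosphatases (Dusp2, Dusp5, Dusp6 and Dusp16), and 1 was lower, the p38-activating kinase Map2k3. The other 5 (Dusp1, Dusp4, Map3k8, Mapk14 and Mapkapk2) did not pass the test, which was limma on log2(FPKM + 1) with Benjamini-Hochberg adjustment over 10540 genes and a threshold of 0.05. FPKM divides the fragments of a gene by its exon length and by the mapped fragments of the library. Over all genes tested, 16.8% were higher and 14.9% were lower by the same rule. None of the 10 had an absolute log2 fold change above 1 with an adjusted p under 0.05, a rule that 1.32% of all genes met, and the count at the adjusted threshold alone was 5. The median log2 fold change was 0.11 for the 10 genes and 0.013 for all genes tested. For 6 of the 10 genes the ranges of the groups were separate, as was the case for 47.1% of all genes tested.

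**Figure D1:**
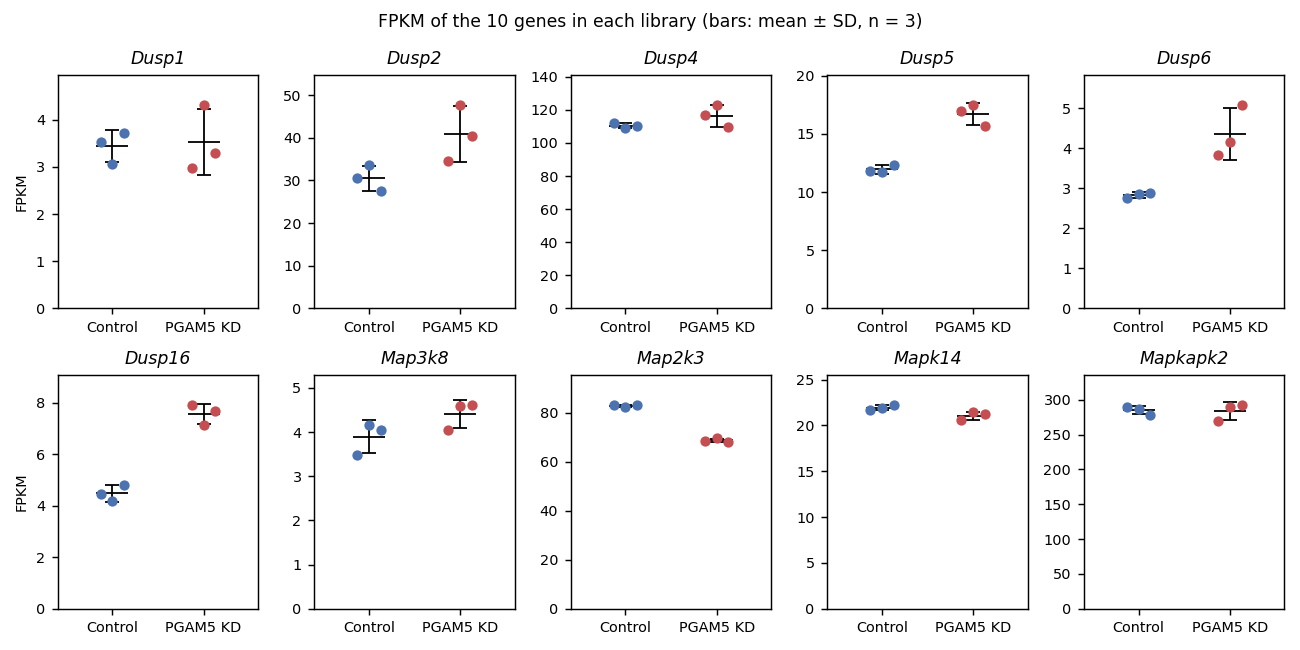
FPKM of each of the 10 genes in the 3 control and 3 PGAM5 KD libraries, with 1 panel per gene. Points are libraries and bars are the group mean ± SD, on an axis that starts at 0. The groups are apart for Dusp2, Dusp5, Dusp6, Dusp16, Map2k3 and Mapk14 and overlap for Dusp1, Dusp4, Map3k8 and Mapkapk2.

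The libraries held 18163463 to 24388915 mapped fragments, as recovered from the FPKM values and the exon lengths of the annotation. Pgam5 fell by 66.4% in mean FPKM (log2 fold change -1.40, adjusted p = 0.000358, limma) and was lower in all 3 PGAM5 KD libraries than in any control library. Of 9 macrophage markers, 8 had a mean of at least 1 FPKM and Mertk was at 0 in every library. Their summed level was 2977 to 3062 FPKM in control and 2689 to 2717 FPKM in PGAM5 KD libraries, where 4 of the markers rose and 3 fell, and the part of this shift in the results was not tested. Summed markers reached at most 0.568 FPKM for neutrophils (Ly6g, Elane, Mpo, S100a9 and Ltf at 0), 0.0168 FPKM for fibroblasts (Col1a2, Col3a1, Dcn and Lum at 0) and 0.211 FPKM for lymphocytes (Cd3e, Cd8a, Ms4a1 and Ncr1 among those at 0). In bulk RNA, fewer cells of a type and less RNA per cell cannot be told apart.

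The 3 promoters printed next are those of phosphatases that hold a cyclic AMP response element core (letters TGACG, searched on both strands) within the bases before the transcription start. Dusp5 and Dusp16 were higher in PGAM5 KD cells and Dusp1 was not past the test, so they show the same element in genes of either kind. Each line gives the 250 bases before the start, 5′ to 3′ on the strand of the gene, from RefSeq on GRCm38.p6, with matches to the core in capitals. They lie at chr6:134792629-134792878 (minus strand, Dusp16), chr19:53528895-53529144 (plus strand, Dusp5) and chr17:26508473-26508722 (minus strand, Dusp1). The RefSeq starts differ from the gene bounds given below, so the Dusp1 window lies inside those bounds and the Dusp5 window partly inside.
Dusp16: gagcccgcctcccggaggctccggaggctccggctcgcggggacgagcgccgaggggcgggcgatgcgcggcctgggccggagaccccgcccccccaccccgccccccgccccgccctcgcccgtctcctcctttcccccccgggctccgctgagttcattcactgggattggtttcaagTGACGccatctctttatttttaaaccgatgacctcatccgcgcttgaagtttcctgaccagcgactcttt
Dusp5: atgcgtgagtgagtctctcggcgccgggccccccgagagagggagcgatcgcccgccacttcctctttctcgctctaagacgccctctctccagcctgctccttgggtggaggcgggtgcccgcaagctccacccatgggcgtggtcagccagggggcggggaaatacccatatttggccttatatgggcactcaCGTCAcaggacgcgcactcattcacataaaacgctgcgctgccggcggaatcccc
Dusp1: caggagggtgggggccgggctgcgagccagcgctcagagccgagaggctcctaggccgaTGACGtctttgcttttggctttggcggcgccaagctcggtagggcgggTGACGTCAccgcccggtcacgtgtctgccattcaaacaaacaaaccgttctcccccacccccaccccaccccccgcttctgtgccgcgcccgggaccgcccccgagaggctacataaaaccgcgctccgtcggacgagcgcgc

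Counted from the transcription start, the core began at base -70 in Dusp16 and at base -55 in Dusp5, where it lies on the opposite strand. Dusp1 held 3 matches, at bases -191, -143 and -140. Its matches at -143 and -140 overlap, lie on opposite strands and together form the full element TGACGTCA. The promoters searched span 250 bases before and 50 after the start, and 9 of them belonged to 8 of the 10 genes. Promoters on chromosome 18, which holds Map3k8, were left out for these genes, so Map3k8 was not searched. Dusp4 had no promoter in the search either. Of these 9 promoters, 5 held the core, which 20.8% of all 32851 promoters held. The other matches were in Dusp2 (base 6) and Mapkapk2 (base 11), both after the start. The full element, which contains the core, was in 1.79% of all promoters. None of the 9 promoters held the AP-1 motif TGANTCA (7.81% of all promoters), the kappa B motif GGGANTTTC (1.11%) or the letters CCATATTA (0.323%). The CArG box of serum response elements, a longer motif searched after the sequences were seen, was in 1 of the 9 promoters and in 1.63% of all promoters. The Dusp5 promoter printed above holds it at bases -82 and -72. A match of letters is a description of these windows and was not tied to binding of a factor.

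Dusp1, Dusp2, Dusp4 and Dusp5 encode the inducible phosphatases that reside in the nucleus. Dusp1 (ENSMUSG00000024190, mm10 chromosome 17 from 26505590 to 26562128) is best known for restraining p38 and JNK, and with them cytokine production, after LPS. Control libraries 1, 2 and 3 had 3.53, 3.07 and 3.72 FPKM, and PGAM5 KD libraries 1, 2 and 3 had 2.97, 4.31 and 3.30 FPKM. The lowest and the highest of the 6 values were both PGAM5 KD libraries, and the groups overlapped. The means were 3.44 ± 0.336 and 3.53 ± 0.697 FPKM (SD, n = 3 each), and the log2 fold change was 0.019 with a 95% interval from -0.27 to 0.31 (adjusted p = 0.923, limma), which reaches changes in either direction. The count behind each value was 205 to 266 fragments. The annotated gene shares 11 exon bases with Ergic1 on the opposite strand (16.4 FPKM in control and 14.1 in PGAM5 KD), and the sources used here do not say whether counting used strand.

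Dusp2 (ENSMUSG00000027368, chromosome 2 from 127336159 to 127338376) encodes a nuclear phosphatase found mainly in activated leukocytes. The control libraries had 30.5, 33.5 and 27.6 FPKM and the PGAM5 KD libraries had 34.5, 47.7 and 40.5 FPKM. All 3 PGAM5 KD values were above the control values, but PGAM5 KD replicate 1 lay only just above control replicate 2, and the PGAM5 KD libraries were spread more widely. The means were 30.5 ± 2.95 and 40.9 ± 6.60 FPKM (SD, n = 3 each), 33.9% higher in PGAM5 KD, with a log2 fold change of 0.40 (SE 0.12, 95% interval 0.12 to 0.68, adjusted p = 0.0410, limma). An exact two-sided permutation test over the 6 libraries gave p = 0.1, the smallest value that 3 against 3 allows. The call was near its threshold. The adjusted p was 0.0927, 0.0509 and 0.120 without control replicates 1, 2 and 3, and it was 0.0141, 0.0891 and 0.10 without PGAM5 KD replicates 1, 2 and 3. The log2 fold change was positive in all 6 of these fits, from 0.29 to 0.52, and it was 0.33 with an adjusted p of 0.0654 on the TPM scale, in which every library has the same sum.

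Dusp4 (ENSMUSG00000031530, chromosome 8 from 34807297 to 34819894), a nuclear phosphatase of ERK and JNK, was the most abundant of the 6 phosphatases. It had 112, 109 and 110.3 FPKM in control libraries and 117, 123 and 109.7 FPKM in PGAM5 KD libraries. PGAM5 KD replicate 3 fell inside the control range and the other 2 lay above it. The means were 110.4 ± 1.70 and 116 ± 6.56 FPKM (SD, n = 3 each), and the log2 fold change was 0.074 with a 95% interval from -0.031 to 0.18 (adjusted p = 0.250, limma). With 5584 to 7334 fragments per library, the interval holds no increase above 0.18 on the log2 scale.

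Dusp5 (ENSMUSG00000034765, chromosome 19 from 53529109 to 53542431) encodes a nuclear phosphatase that acts on ERK and is a well-known transcriptional target of ERK signalling. Its level was 11.8, 11.7 and 12.4 FPKM in control libraries and 17.0, 17.5 and 15.7 FPKM in PGAM5 KD libraries. The groups were well apart and each was tight. The means were 11.9 ± 0.363 and 16.7 ± 0.916 FPKM (SD, n = 3 each), 39.9% higher in PGAM5 KD (log2 fold change 0.45, SE 0.053, adjusted p = 0.00110, limma; exact permutation p = 0.1). The gene remained past the threshold in all 17 alternative fits, with log2 fold changes from 0.40 to 0.49.

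Dusp6 and Dusp16 are phosphatases of the cytoplasm, Dusp6 with a strong preference for ERK and Dusp16 acting on JNK and p38. Dusp6 (ENSMUSG00000019960, chromosome 10 from 99263231 to 99267489) had 2.76, 2.85 and 2.89 FPKM in control libraries and 3.82, 4.17 and 5.08 FPKM in PGAM5 KD libraries. The control values were nearly equal, and the PGAM5 KD values all lay above them with replicate 3 highest. Mean Dusp6 was 2.83 ± 0.0687 in control and 4.36 ± 0.650 FPKM in PGAM5 KD (SD, n = 3 each), 53.7% higher (log2 fold change 0.48, SE 0.097, adjusted p = 0.0110, limma; exact permutation p = 0.1). These values rest on 157 to 388 fragments per library, and because a pseudocount of 1 is added, the fold change of a gene at this level is understated. With a pseudocount of 0.1 the log2 fold change was 0.59.

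Dusp16 (ENSMUSG00000030203, chromosome 6 from 134715468 to 134792625) had the largest change of the 10 genes. It had 4.44, 4.18 and 4.81 FPKM in control libraries and 7.89, 7.13 and 7.67 FPKM in PGAM5 KD libraries. The lowest PGAM5 KD library was far above the highest control library. Mean Dusp16 was 4.48 ± 0.318 in control and 7.57 ± 0.393 FPKM in PGAM5 KD (SD, n = 3 each), 68.9% higher (log2 fold change 0.65, SE 0.068, adjusted p = 0.000679, limma; exact permutation p = 0.1). The log2 fold change was 0.61 to 0.76 over 17 alternative fits and past the threshold in each. An antisense gene in its locus, Gm36328, shares none of its exon bases and was at 0.0382 FPKM in control and 0.0850 in PGAM5 KD.

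**Figure D2:**
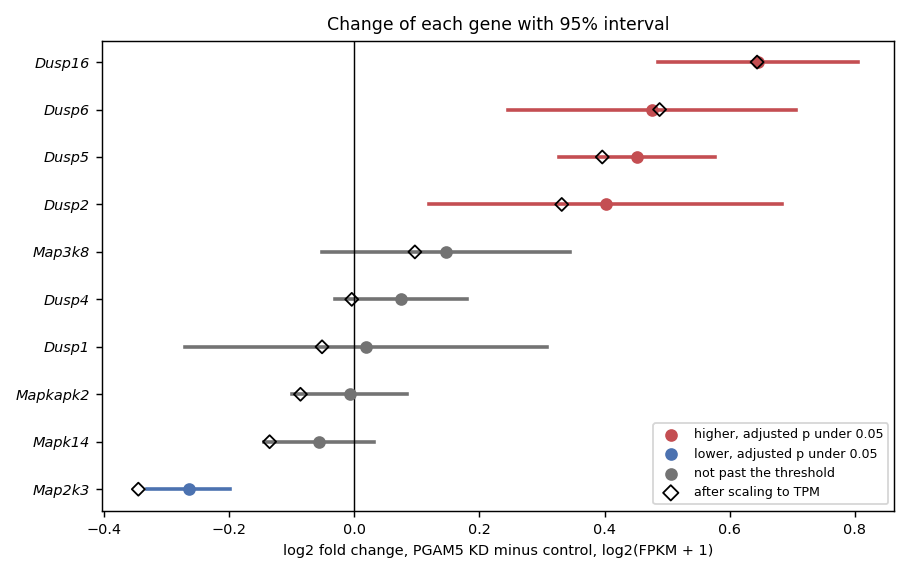
Log2 fold change (PGAM5 KD minus control, on the log2(FPKM + 1) scale) of the 10 genes with 95% intervals from limma, n = 3 libraries per group. The intervals of Dusp2, Dusp5, Dusp6 and Dusp16 lie above 0 that of Map2k3 lies below 0, and the other 5 cross 0. Open diamonds give the value after scaling to TPM, at 0.33 for Dusp2 and -0.14 for Mapk14.

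Of the 4 kinases, 1 was lower and 3 were not past the test. Map3k8 (ENSMUSG00000024235, chromosome 18 from 4331327 to 4353015) encodes TPL2, the MAP kinase kinase kinase that couples Toll-like receptors to ERK and is held inactive by the NF-kappa B precursor p105 until LPS releases it. It had 3.47, 4.17 and 4.05 FPKM in control libraries and 4.05, 4.60 and 4.61 FPKM in PGAM5 KD libraries. PGAM5 KD replicates 2 and 3 were the highest libraries, while PGAM5 KD replicate 1 fell within the control range. The means were 3.90 ± 0.373 and 4.42 ± 0.318 FPKM (SD, n = 3 each), with a log2 fold change of 0.15 and a 95% interval from -0.051 to 0.35 (adjusted p = 0.226, limma).

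Map2k3 (ENSMUSG00000018932, chromosome 11 from 60932033 to 60952811) encodes MKK3, which phosphorylates p38. It had 83.0, 82.2 and 83.0 FPKM in control libraries and 68.6, 69.5 and 68.0 FPKM in PGAM5 KD libraries. Relative to its level the gene had the smallest spread of the 10 in both groups, with a gap far larger than the spread within either. The means were 82.7 ± 0.475 and 68.7 ± 0.726 FPKM (SD, n = 3 each), so Map2k3 fell by 16.9% (log2 fold change -0.26, SE 0.028, adjusted p = 0.000712, limma; exact permutation p = 0.1). It was lower and past the threshold in all 17 alternative fits, with log2 fold changes from -0.34 to -0.26. A processed pseudogene, Gm12792, matches the transcript at 86.6% over 998 bases and was at 0 in every library.

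Mapk14 (ENSMUSG00000053436, chromosome 17 from 28691329 to 28748406) encodes p38 alpha, the substrate of MKK3. The control libraries had 21.7, 21.9 and 22.2 FPKM and the PGAM5 KD libraries had 20.5, 21.4 and 21.2 FPKM. Every PGAM5 KD library was below every control library, by a small margin. The means were 21.9 ± 0.253 and 21.1 ± 0.458 FPKM (SD, n = 3 each), and the log2 fold change of -0.056 had a 95% interval from -0.14 to 0.032 (adjusted p = 0.294, limma). On the TPM scale (the same values divided by their sum in each library) the adjusted p was 0.0346, at a log2 fold change of -0.14.

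Mapkapk2 (ENSMUSG00000016528, chromosome 1 from 131053700 to 131097826) encodes MK2, the kinase activated by p38 that stabilises cytokine mRNAs by phosphorylating the RNA-binding protein tristetraprolin. It had 290.0, 286 and 279 FPKM in control libraries and 269, 289.7 and 292 FPKM in PGAM5 KD libraries. PGAM5 KD replicate 1 was the lowest of the 6 and PGAM5 KD replicate 3 the highest. The means were 285 ± 5.86 and 284 ± 12.5 FPKM (SD, n = 3 each), and the log2 fold change was -0.0073 with a 95% interval from -0.099 to 0.084 (adjusted p = 0.904, limma). Mapkapk2 rested on 16000 to 21656 fragments per library, the most of the 10 genes.

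Per length of transcript, the mean FPKM over all 6 libraries was 81.6 times as high for Mapkapk2, the highest of the 10 genes, as for Dusp1, the lowest. The control order was Mapkapk2, Dusp4, Map2k3, Dusp2, Mapk14, Dusp5, Dusp16, Map3k8, Dusp1 and Dusp6. Neighbours in that order had separate ranges, except Map3k8 and Dusp1. In PGAM5 KD cells the order was identical as far as Map3k8, and Dusp6 then stood above Dusp1. There, the range of Map3k8 overlapped that of Dusp6, and the range of Dusp6 overlapped that of Dusp1.

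The 10 typical MAP kinase phosphatases (the 6 above with Dusp7, Dusp8, Dusp9 and Dusp10) were added up to show which of them carries the level. Their summed FPKM was 172.6, 170.5 and 169 in control libraries and 190.4, 213 and 191 in PGAM5 KD libraries. All 3 PGAM5 KD sums were above the control sums, with replicate 2 highest. Dusp4 supplied 64.7% ± 0.755 of the sum in control and 58.8% ± 2.13 in PGAM5 KD (SD, n = 3 each). The share of Dusp2 was 17.9% in control and 20.6% in PGAM5 KD, that of Dusp5 was 7.0% and 8.45%, that of Dusp16 was 2.62% and 3.84%, and that of Dusp6 was 1.66% and 2.21%. Dusp1 supplied 2.02% and 1.77%. Without Dusp4, the sum was 60.3 ± 1.42 FPKM in control and 81.7 ± 8.19 FPKM in PGAM5 KD (SD, n = 3 each). No test was run on these sums, since they include genes already tested.

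**Figure D3:**
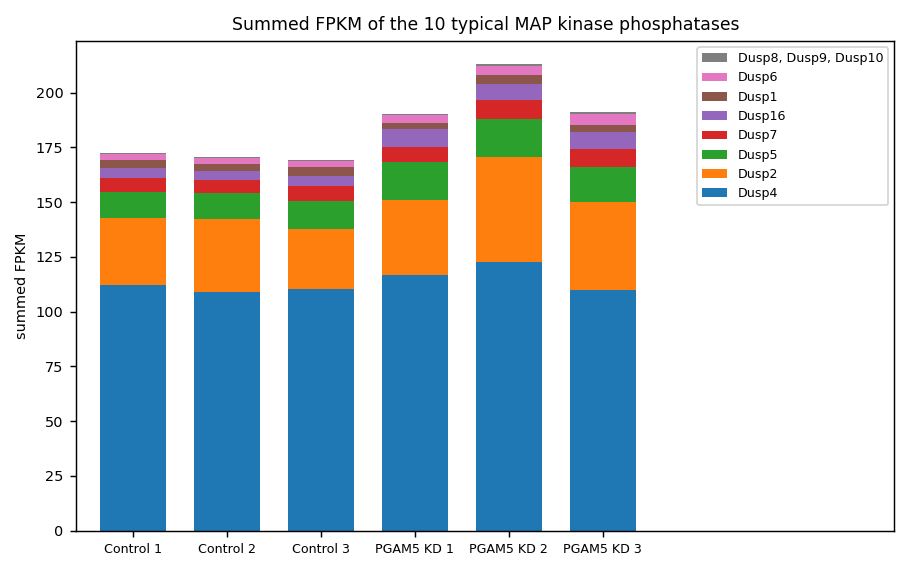
Summed FPKM of the 10 typical MAP kinase phosphatases in each of the 6 libraries, stacked by gene. Dusp4 fills most of every bar, and the control bars reach 169 to 172.6 FPKM while the PGAM5 KD bars reach 190.4 to 213 FPKM.

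Of the remaining typical phosphatases, only Dusp7 was expressed highly enough to test. Dusp7, a cytoplasmic phosphatase of ERK, was at 6.53 ± 0.536 FPKM in control and 8.03 ± 0.785 FPKM in PGAM5 KD (SD, n = 3 each), with separate ranges and an adjusted p of 0.0551 (limma), just outside the threshold. Alternative fits fell on either side: Dusp7 passed as higher with a filter of 5 FPKM and with median scaling, but not with TPM or quantile scaling. Dusp8 was at 0.0890 FPKM in control and 0.365 FPKM in PGAM5 KD on 7 to 49 fragments, below the filter for the test. Dusp9 and Dusp10 were also below that filter, a mean of 1 FPKM.

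Each kinase stands beside isoforms that do the same step, and the level of these isoforms was read on the FPKM scale. For p38, Mapk14 exceeded Mapk11 (2.73 FPKM in control and 3.40 in PGAM5 KD), Mapk12 (0.780 and 1.38) and Mapk13 (0.0862 and 0.0979) in every library. Map2k6, the other main p38-activating kinase, was at 0.175 and 0.264 FPKM, so Map2k3 supplied nearly all of that pair. Mapkapk2 likewise stood far above Mapkapk3 (0.0540 FPKM in control and listed at 0 in PGAM5 KD) and Mapkapk5 (0.807 and 0.984). In the ERK branch, Mapk3 was at 26.7 ± 0.523 and 31.0 ± 4.29 FPKM (SD, n = 3 each, adjusted p = 0.145, limma). Of the JNK kinases, Mapk8 was at 4.61 and 4.48 FPKM, Mapk9 at 7.59 and 6.37 FPKM, and Mapk10 at 0 in every library, and neither Mapk8 nor Mapk9 passed the test.

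**Figure D4:**
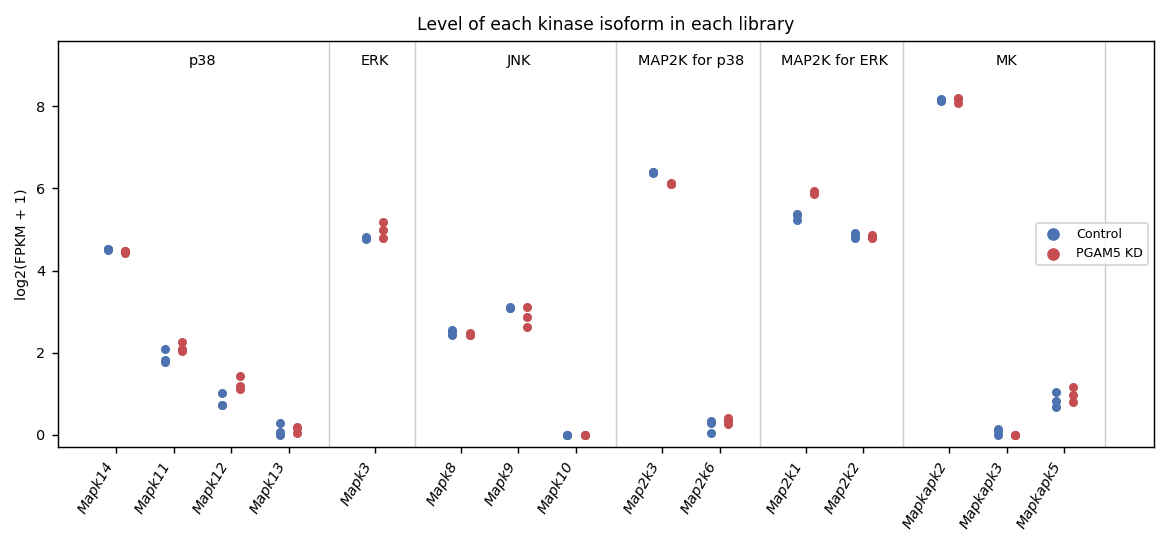
Level as log2(FPKM + 1) of the isoforms of each kinase step, with 1 point per library (MAP2K, MAP kinase kinase; MK, kinases activated by p38). Mapk14, Map2k3 and Mapkapk2 lie above the other isoforms of their step in both groups.

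A further 102 genes of the cascade were grouped by role, of which 70 were expressed highly enough to test. PGAM5 KD cells had 14 of the 70 at a higher and 5 at a lower level, with a median log2 fold change of 0.039, against 16.8% higher and 14.9% lower over all genes. Without control replicate 1 these numbers were 9 and 4 (13.2% and 10.9% of all genes), without control replicate 2 they were 11 and 3 (12.8% and 11%), and without control replicate 3 they were 10 and 3 (12.2% and 10.7%). On the TPM scale they were 9 and 13, where 10.3% of all genes were higher and 21.7% were lower. Among 17 MAP kinase kinase kinases tested, Braf (log2 fold change 0.24), the activator of MEK in the ERK branch, and Map3k20 (0.23), a sensor of ribosome stress, were higher, and Taok1 (-0.36) and Map3k2 (-0.21) were lower. Of 9 MAP kinases tested, Mapk6 (-0.22), the atypical kinase ERK3, was lower and 8 did not pass. Of 10 scaffolds and partners tested, Spag9 (-0.19), a JNK and p38 scaffold, was lower and 9 did not pass. The fold changes of these 10 were below 0 for all but 1, with a median of -0.18 on the log2 scale, and the number lower was 6 on the TPM scale (21.7% of all genes) and 4 with voom (18.6% of all genes). In 9 of 17 alternative fits, Spag9 was not past the threshold and no other scaffold was lower (limma).

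Map2k1, which encodes MEK1, the kinase directly above ERK and directly below Map3k8, was the only one of 5 further MAP kinase kinases tested that passed. It had 40.3, 40.1 and 36.7 FPKM in control libraries and 57.5, 60.2 and 58.7 FPKM in PGAM5 KD libraries. The groups were far apart, with a log2 fold change of 0.58 (SE 0.045, adjusted p = 0.000194, limma; exact permutation p = 0.1). Map2k2, which encodes MEK2 and was named after its values were seen, was at 28.0 and 27.5 FPKM and did not pass. Of 6 MAP kinase-activated kinases tested, Rps6ka4 was higher (17.9 FPKM in control and 26.1 FPKM in PGAM5 KD, log2 fold change 0.52), as was Rps6ka1 (0.16). They encode MSK2, a nuclear kinase that phosphorylates histone H3 and CREB, and RSK1, a substrate of ERK. The counts of these kinase lists stand beside 16.8% higher and 14.9% lower over all genes. Rps6ka1 kept its call in 7 of 17 alternative fits.

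Of 15 genes known as transcriptional outputs of ERK signalling, 10 were tested, 6 were higher and 4 did not pass, beside 16.8% higher over all genes. Of the 10 fold changes, 9 were above 0 and the median was 0.42. Epha2, a receptor tyrosine kinase, was at 0.906 FPKM in control and 3.01 FPKM in PGAM5 KD (log2 fold change 1.07). Its control mean was under the filter of 1 FPKM, so it entered the test only through its PGAM5 KD level. Among the 9 genes with a control mean of at least 1 FPKM, a restriction chosen after the values were seen, 5 were higher and the median was 0.38. Phlda1 was at 2.29 and 5.45 FPKM (0.98), and Ier3, an early response gene that LPS also induces, was at 109 and 212.8 FPKM (0.95). Ccnd1, which encodes cyclin D1, was at 79.5 and 110.8 FPKM (0.47). The other 2 higher genes, Fosl1 (0.46) and Etv5 (0.38), were named after their values were seen. Etv5 was near the threshold: its adjusted p (limma) was 0.0995, 0.0605 and 0.109 without control replicates 1, 2 and 3, 0.0652 and 0.0849 without PGAM5 KD replicates 1 and 3, and 0.0640 on the TPM scale. Egr1, also named after its values were seen, was at 2.96 ± 0.464 and 3.74 ± 0.711 FPKM (SD, n = 3 each) and did not pass (adjusted p = 0.210, limma).

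Other phosphatases act on MAP kinases without belonging to the dual-specificity family. Ptpn7, a leukocyte tyrosine phosphatase of ERK and p38, was higher (28.7 FPKM in control and 37.0 FPKM in PGAM5 KD, log2 fold change 0.35), as was Ppm1a (0.24), a serine/threonine phosphatase, among 4 tested. Over all genes tested, 16.8% were higher. Ptpn5, a tyrosine phosphatase named after its values were seen, was below the filter at 0.237 FPKM in control and 0.838 FPKM in PGAM5 KD on 20 to 138 fragments. Genes of the wider lists below the filter went in both directions. Ksr1 (0.860 FPKM in control and 0.535 in PGAM5 KD) and Rps6ka2 (0.694 and 0.505), also named after their values were seen, were lower. Of 8 atypical dual-specificity phosphatases tested, Dusp22 (0.21) was higher and Dusp11 (-0.26), which acts on RNA, was lower. These counts are near the shares over all genes, 16.8% higher and 14.9% lower. Of the 17 genes of the wider lists named by rule as past the test, 11 kept their call in every alternative fit. The other 6 were near the threshold, and each lost its call when some single libraries were left out. The highest adjusted p (limma) among these fits was 0.122 for Dusp22 (without PGAM5 KD replicate 3), 0.0644 for Ppm1a and 0.0745 for Map3k20 (both without control replicate 1), 0.0968 for Map3k2 (without PGAM5 KD replicate 3), and 0.116 for Rps6ka1 and 0.133 for Spag9 (both without control replicate 3). On the TPM scale the calls of Rps6ka1 (log2 fold change 0.089, adjusted p = 0.218), Dusp22 (adjusted p = 0.124), Map3k20 (0.0978) and Ppm1a (0.0759) were also lost, and those of Map3k2 and Spag9 were kept.

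**Figure D5:**
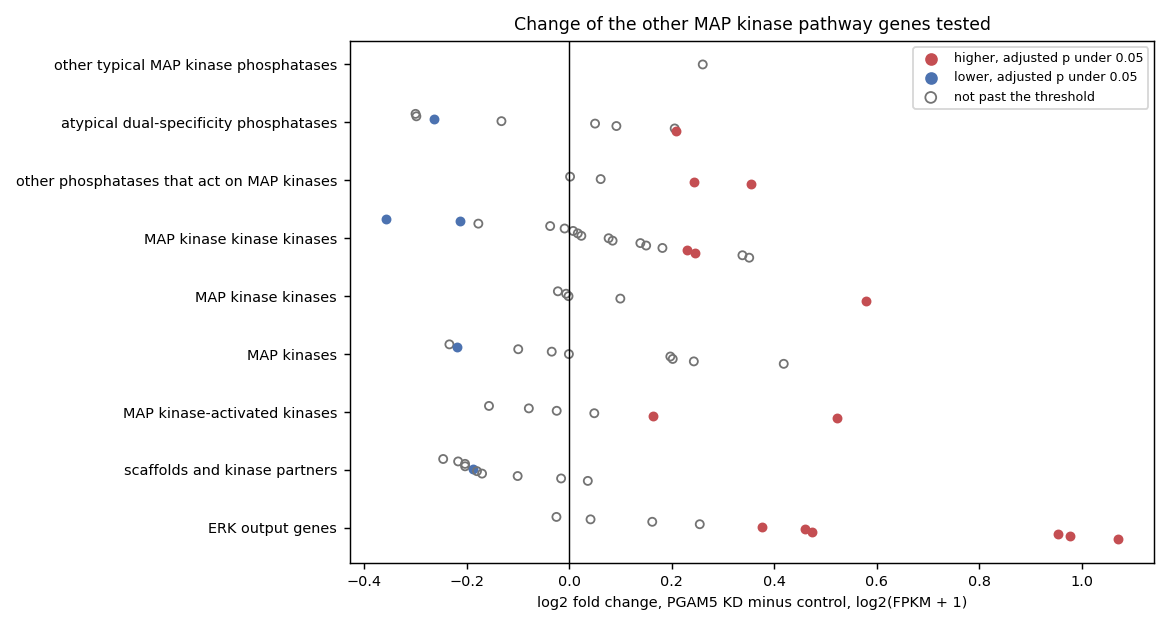
Log2 fold change (PGAM5 KD minus control, log2(FPKM + 1) scale) of the genes tested in each role group of the wider cascade. Each point is a gene, spread vertically only for legibility, and filled points passed the adjusted threshold (red higher, blue lower). The ERK output genes lie mostly above 0, with 6 of 10 past the test.

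These directions depend in part on the scale. The summed FPKM over all genes was 304393 to 304889 in control and 317936 to 324298 in PGAM5 KD libraries, so TPM lowers every PGAM5 KD level against control, while the pseudocount of 1 weighs less on low genes such as Dusp6. Of the genes called over the whole table, 52.9% were higher on the FPKM scale and 32.3% on the TPM scale. On the TPM scale Dusp5, Dusp6 and Dusp16 were still higher and Map2k3 still lower, Dusp2 was no longer past the threshold, and Mapk14 passed it as lower.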

How the data were processed

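RNA-sequencing libraries of 3 control and 3 PGAM5 KD iBMDM samples were analysed, grouped by their labels. The authors deposited 1 table of FPKM per library. The submitters' processing notes list HISAT2 2.0.5, featureCounts 1.5.0-p3 and mm10, and the annotation and strand setting are not given in the sources used here. Exon lengths and positions were taken from GENCODE M21, which matched 54495 of 54532 gene identifiers. With these lengths, 96.8% to 97.1% of values under 1000 fragments were whole within 0.01, which gave the depth of each library, so that 1 fragment on 1 kb of exon corresponded to at most 0.0551 FPKM.

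FPKM are not counts, so log2(FPKM + 1) was fitted with limma 3.58.1 in R 4.3.3 (two-sided, with a mean-variance trend) over all genes with a mean of at least 1 FPKM, p-values were adjusted by Benjamini-Hochberg, and a gene was called at an adjusted p under 0.05. Exact permutation tests of single genes cannot go below 0.1 with 3 against 3. Python 3.11.15 (pandas 2.3.3, scipy 1.17.1) was used for permutation tests and tables, and similar transcripts were searched with blastn 2.17.0 (at least 85% identity over 200 bases). The fitting code was tested on simulated data.

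The 10 genes and the role lists were chosen with earlier results of these data known. Beyond the 10 genes, at most 4 genes past the test were named per list by size of change, with Pgam5, the typical phosphatases, kinase isoforms, markers and overlapping genes. A few genes of these lists entered the counts but are not reported here by name, and genes outside this rule are marked as named after their values were seen. Alternatives were another pseudocount, other filters, quantile, TPM and median scaling, no trend, weighting of libraries, a block for the replicate number, omission of each library in turn, voom on recovered fragments and protein-coding genes only.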

Additional observations from a re-analysis of the deposited data

How the results depend on the processing

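Over 28 genes and the alternative fits, 401 of 469 fold changes kept their direction and side of the threshold, 58 lost their call, 1 gained it and 9 changed sign. The sign changes were all in Dusp1, Dusp4 and Mapkapk2, which were not past the test. Dusp1 was at -0.051 (TPM), -0.0048 (voom) and -0.10 to 0.11 with a library left out, Dusp4 at -0.0040 (TPM), and Mapkapk2 at 0.00011 (median centring), 0.0060 (library weights) and -0.029 to 0.030 with a library left out. The cause was not tested.

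Among the 10 genes, scaling to TPM gave 2 lower instead of 1. The number higher was 3 instead of 4 wherever Dusp2 lost its call, which it kept in 8 of 17 alternative fits. Beyond the fits given above, the adjusted p of Dusp2 (limma) was 0.110 without a filter, 0.0590 with quantile scaling and 0.0631 without a trend. In the wider lists, the number higher was 9 with TPM and 9 to 14 with a library left out, and the number lower was 13 with TPM, 14 with voom, 8 without a trend, 3 of 94 genes without a filter and 3 to 5 with a library left out. The lowest of these were reached without control replicate 1 (9 higher) and without control replicates 2 or 3 (3 lower each). Over all genes, 1088 were higher with TPM, and 2282 were lower with TPM, 1957 with voom, 1572 without a trend, 1267 of 20816 without a filter and 1129 to 1361 with a library left out, beside 1575. Replicate numbers showed no sign of pairing: same-numbered libraries had deviations correlated at -0.020, 0.016 and -0.052, and control replicate 1 was closest to PGAM5 KD replicate 2. The labels do not say whether same-numbered libraries were prepared together. A replicate block gave 9 higher and 3 lower in the wider lists, 4 higher and 1 lower among the 10 genes, and 1440 higher and 1212 lower over all genes. Dusp1, Dusp6 and Map3k8, at under 5 FPKM, rest on the fewest fragments, and their intervals are among the widest.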
